A study of Mus musculus with 17 samples.

Results

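The circadian clock genes examined here were Per1, Per2, Per3, Cry1, Cry2, Arntl, Clock, Nr1d1, Nr1d2 and Dbp. They were taken by symbol from a table of read counts, in which all 10 were present among 24498 gene symbols and all 10 passed the filter on low counts in every fit. The table came from RNA sequencing of polyadenylated RNA, with each library made from slices of the dorsal hippocampus of mice. Acss2 encodes a nuclear and cytosolic synthetase of acetyl-CoA, and the animals were either Acss2 knockouts (KO) or wild type (WT), bred as separate homozygous lines from the same heterozygous stock. Each mouse, 6 months old at surgery, was injected in the hippocampus with tau extracted from Alzheimer's disease brain (Tau) or with saline (PBS). Per the labels, it was perfused with fixative before dissection. The paper's methods describe such perfusion for histology and name none for RNA sequencing. The 17 libraries fell into 6 groups, named by sex, genotype and injection. In males each of the 4 combinations (WT PBS, KO PBS, WT Tau and KO Tau) had 3 libraries, and in females KO Tau had 3 and WT Tau had 2. No group was female PBS, and the numbers of the female libraries came from another series than those of the males, so that sex and library series cannot be told apart.

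The time of day at which tissue was collected is given neither in the labels nor in the study's methods. The animals lived under equal phases of light and dark with lights on in the morning, and a fixed morning window is described for behavioral tests only. Any difference in collection time between libraries or groups therefore cannot be told apart from a difference in clock gene expression. The labels do not say whether each library was a separate animal, so p-values measure the spread between libraries. In such bulk samples fewer cells of a type and less RNA per cell also cannot be told apart.

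The mammalian clock is a loop of transcription and repression. CLOCK and the product of Arntl (BMAL1) bind E-boxes and activate the Per and Cry genes, whose proteins return to repress that activation. In a second loop the nuclear receptors REV-ERBα (Nr1d1) and REV-ERBβ (Nr1d2) repress Arntl through the response element that ROR receptors use to activate it, and DBP, a PAR bZIP factor that is itself an E-box target, acts on D-boxes. In most tissues Arntl therefore peaks in another phase than Dbp, Nr1d1 and the Per genes. Per1 is in addition known to respond quickly to glucocorticoids and, through cyclic AMP signalling, to neuronal activity.

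The elements of this loop were searched in RefSeq promoter windows (GRCm38.p6, 250 bases before to 50 after each annotated start), and the sites found in the repressor genes and in the REV-ERB targets are shown because such elements are the sites through which these factors are known to act on one another. Each run is written 5′ to 3′ along the gene's strand with the motif in capitals. The first is the Per1 E-box on the plus strand of chr11:69098771-69098800, 166 bases before an annotated start. That start lies within the Per1 gene, downstream of the gene's first base at chr11:69095217.
Per1 E-box: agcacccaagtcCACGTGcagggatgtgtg
The Cry1 E-box lay 60 bases before the start on the minus strand of chr10:85185097-85185126.
Cry1 E-box: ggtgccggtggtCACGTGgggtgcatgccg
Per3 held a pair of D-boxes on the minus strand, at chr4:151044851-151044882 and chr4:151044804-151044835.
Per3 D-box, distal: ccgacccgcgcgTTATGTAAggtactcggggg
Per3 D-box, proximal: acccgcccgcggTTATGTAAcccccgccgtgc
Arntl held the core of a ROR element 31 bases after its start on the plus strand of chr7:113207530-113207559, and Nr1d2 held one 77 bases before its start on the minus strand of chr14:18239166-18239195.
Arntl ROR core: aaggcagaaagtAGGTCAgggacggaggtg
Nr1d2 ROR core: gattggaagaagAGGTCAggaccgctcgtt
Both strands were searched and no shown motif overlapped another. The E-box (CACGTG) was present in 7.15% of all 32851 promoter windows, the D-box (TTATGTAA) in 0.938%, the ROR core (AGGTCA) in 16.3% and the cyclic AMP response element (TGACGTCA) in 1.79%. The E-box of Per1 was in 1 of its 2 windows. On the opposite strand a ROR core was also present in that Per1 window and in 1 of the 3 windows of Clock, and the cyclic AMP response element was in no member's window. No window was listed for Per2, and the letters searched were not in the windows of Dbp, Nr1d1 and Cry2. A match is a description of the letters and not of a bound site.

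Libraries held 14183131 to 22463635 counts. Levels are given as CPM, a gene's counts for each 1000000 counts of the library after its total was scaled by the TMM factor that the fits used. Acss2 lay between 3.09 and 8.94 CPM in all 9 libraries labelled KO, and between 44.3 and 55.9 CPM in all 8 labelled WT. Markers of CA1, CA3 and dentate granule neurons were present in every library. Their share varied, and the summed level of 8 dentate granule markers ran from 161 CPM in male KO PBS 752 to 706 CPM in male KO PBS 751. Markers of the suprachiasmatic nucleus and hypothalamus, the sites of the central clock and its neighbours, were at or near 0, with 7 genes together reaching 0.793 to 5.24 CPM and Six6, Nms and Hcrt at no more than 3 counts in any library. The sum was 1.03 to 1.33 CPM in male WT PBS and 3.61 to 5.24 CPM in male KO Tau. Library 711 stood apart from the other male KO Tau libraries in astrocyte markers, and 713 in choroid plexus markers. Library 752 stood apart from the other male KO PBS libraries in striatal markers. In dentate markers 751 stood apart, as the highest, and 752 was the lowest. In female WT Tau the oligodendrocyte markers summed to 10707 CPM in 331 and to 5527 CPM in 341. Fold changes described here that moved most without 711, 713, 752 or 331 are also given without that library. For 751 only counts and ranges that include its omission are given.

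Clock genes were expressed at moderate levels in every library, with 209 to 3298 counts per gene and library. In mean CPM over the 17 libraries Cry2 was the most abundant (138 CPM), and only 6.86% of all symbols in the table were at or above it, whereas Cry1 was the least abundant (21.0 CPM). Compared per kilobase of exon in male WT PBS, Nr1d1 stood first at 29.9 ± 2.50 CPM per kb (SD, n = 3), followed by Cry2 (25.9 ± 0.650), Per1 (24.3 ± 1.98), Nr1d2 (17.3 ± 0.528) and Dbp (11.5 ± 1.00). Per2 (7.78 ± 0.367), Clock (6.65 ± 0.304), Cry1 (6.58 ± 0.557), Arntl (5.47 ± 0.503) and Per3 (3.54 ± 0.349) came after them. Neighbours in this order whose libraries overlapped were Cry2 and Per1, Clock and Cry1, and Cry1 and Arntl. Within the cryptochromes the level of Cry2 was above that of Cry1 in every library, and within the PERIOD family Per1 stood above Per2 and Per2 above Per3 on this scale. Across all libraries the ratio of the highest to the lowest level was largest for Per1 (2.95) and smallest for Clock (1.37).

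**Figure D1:**
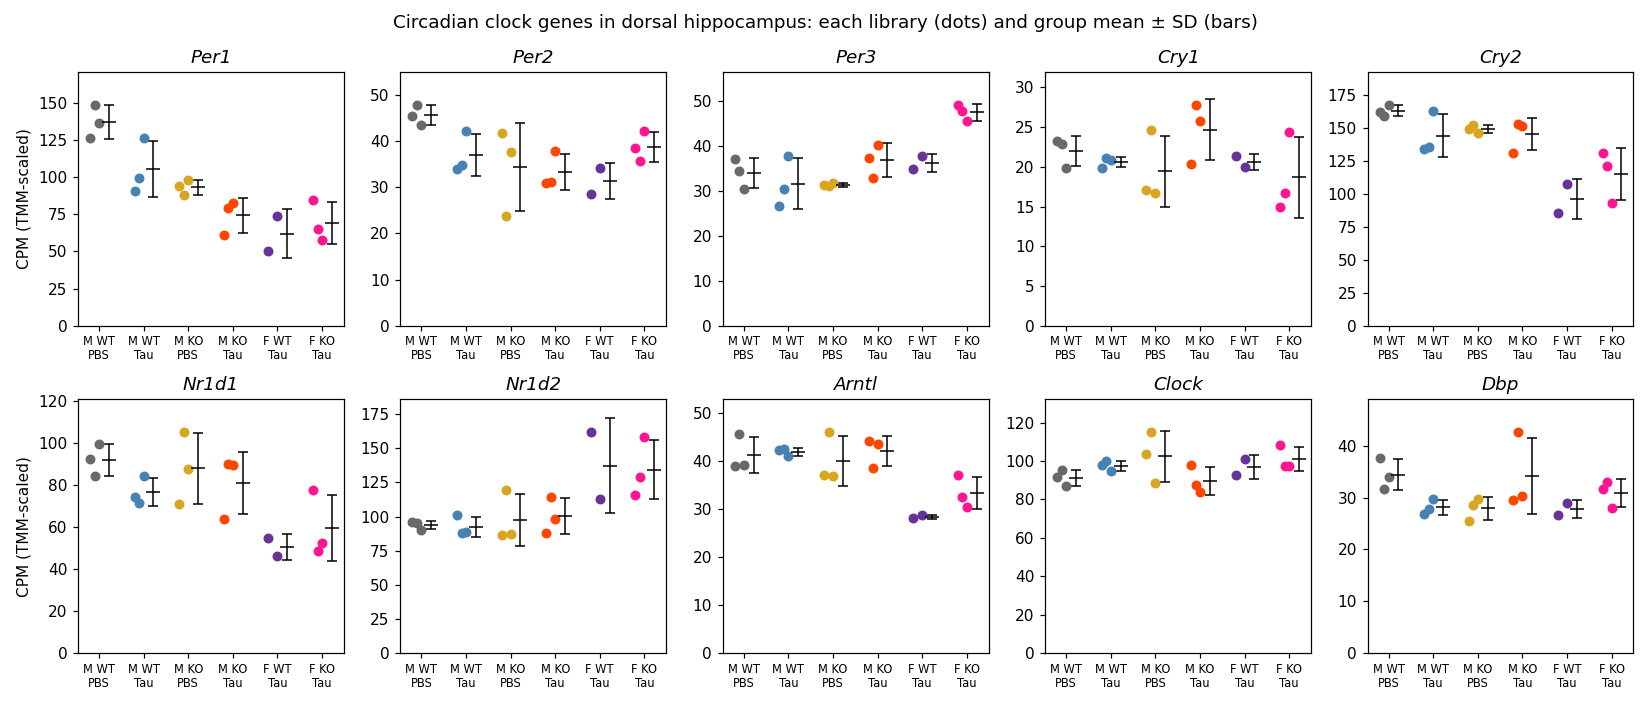
Level of each of the 10 clock genes (y axis, CPM scaled by TMM library size, from 0) in each library (dots) of the 6 groups (x axis, M male and F female), with the group mean ± SD beside the dots (n = 3, or 2 for female WT Tau). Per1 stands highest in male WT PBS (126 to 149 CPM), Arntl and Cry2 stand lowest in the female groups, and Clock moves little between groups.

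Per1, a PERIOD repressor and an immediate target of the clock activators, was the member that varied most between the male groups. It stood at 126, 149 and 136 CPM in male WT PBS (replicates 791, 792 and 793), at 90.7, 99.4 and 126 in male WT Tau (771, 772 and 773), at 94.0, 88.0 and 98.0 in male KO PBS (751, 752 and 753) and at 60.8, 79.4 and 82.8 in male KO Tau (711, 712 and 713). The male KO PBS and male KO Tau libraries all lay below the male WT PBS libraries, the male KO Tau libraries all lay below those of male WT Tau and of male KO PBS, and only male WT Tau 773 reached the male WT PBS range. The log2 fold change versus male WT PBS was -0.38 in male WT Tau (SE 0.14), -0.55 in male KO PBS (SE 0.14) and -0.88 in male KO Tau (SE 0.14). None of these passed a false discovery rate (FDR) of 0.05 over all genes in edgeR's quasi-likelihood test. The adjusted p-value was 0.99994, 0.999 and 0.162, and the unadjusted p was 0.0207, 0.00221 and 5.61e-05 in the same order. The contrasts share the control libraries. Between the other male groups Per1 differed by -0.50 (SE 0.14, FDR 0.927) in male KO Tau versus male WT Tau and by -0.33 (SE 0.14, FDR 0.608) in male KO Tau versus male KO PBS, the latter at -0.20 (SE 0.13) without library 711. The genotype by treatment interaction was 0.05 (SE 0.20, FDR 0.997), and it stood at 0.17 without 711 and at -0.04 without 713.

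The call for Per1 depended on the test. In male KO Tau versus male WT PBS the DESeq2 Wald test on the same 12 libraries gave -0.87 (SE 0.15) and an adjusted p of 4.24e-05, in a comparison in which DESeq2 called 0.0750% of genes. The limma voom fit with quality weights gave -0.76 and an adjusted p of 0.0426 (0.0729% of genes called), and DESeq2 on the compared groups alone gave 0.000165 (0.179% called). In male KO PBS versus male WT PBS, DESeq2 on those groups alone gave -0.55 and an adjusted p of 0.0109 (0.0206% called), whereas DESeq2 on the 12 libraries gave 0.498. Averaged over treatment, KO against WT was -0.53 (SE 0.10, FDR 0.437) in edgeR and -0.52 (adjusted p = 0.00232) in DESeq2, which called 0.0652% of genes there. Without library 711 the edgeR value in male KO Tau versus male WT PBS was -0.76 (SE 0.13, FDR 0.268), and over all 25 alternatives it ran from -0.97 to -0.76. The summed level of 16 immediate early genes was 1299.7 to 1826 CPM in male WT PBS and 915 to 1779 CPM in male KO Tau, and that of 12 glucocorticoid-responsive genes was 328 to 369 and 277 to 320.1 CPM. The second pair of ranges did not overlap, and neither did 14.1% of all genes, taken singly, in this comparison. In male KO PBS the sums were 1394 to 1565 CPM and 359 to 369 CPM, within or overlapping the ranges of male WT PBS. In these lists Nr4a1 (-0.74, SE 0.20, FDR 0.783) was among the lower and Npas4 (1.78, SE 0.42, FDR 0.783) among the higher genes of male KO Tau, and 0 of the 12 and 0 of the 16 passed the FDR. Their part in the Per1 values was not tested.

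Per2, the second PERIOD repressor, was at 45.4, 47.8 and 43.5 CPM in male WT PBS, at 34.0, 34.8 and 42.1 in male WT Tau, at 41.8, 23.7 and 37.7 in male KO PBS and at 31.0, 31.2 and 37.8 in male KO Tau. The libraries of male WT Tau, male KO PBS and male KO Tau were each below those of male WT PBS. In these comparisons 12.2%, 10.0% and 14.1% of all genes did not overlap, in the same order. The nearest libraries were close, at 42.1 CPM in 773 and 43.5 CPM in 793. The fold changes versus male WT PBS were -0.30 (SE 0.18), -0.41 (SE 0.18) and -0.45 (SE 0.18) on the log2 scale in edgeR, with FDR of 0.99994, 0.999 and 0.783, so none was called. Library 752 was the lowest of all at 23.7 CPM, and without it the fold change of male KO PBS was -0.20 (SE 0.12). Over 25 alternatives that fold change ran from -0.57 to -0.20. Per3, the third family member, differed little between male groups. It was at 37.1, 34.4 and 30.5 CPM in male WT PBS, at 26.6, 30.4 and 37.8 in male WT Tau, at 31.3, 31.1 and 31.8 in male KO PBS and at 37.4, 32.9 and 40.3 in male KO Tau, and no male comparison of it passed an unadjusted p of 0.05.

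The cryptochromes, which carry most of the repression of CLOCK and BMAL1, were not called in any male comparison in edgeR. Cry2 was at 163, 159.6 and 168 CPM in male WT PBS, at 134, 136 and 163 in male WT Tau, at 149.6, 153 and 147 in male KO PBS and at 131, 153 and 152 in male KO Tau. The male KO libraries were all below male WT PBS, by a small margin, and the fold changes were -0.13 (SE 0.094) in male KO PBS and -0.17 (SE 0.094) in male KO Tau, neither called. Cry1 was at 23.3, 22.8 and 19.8 CPM in male WT PBS, at 19.9, 21.1 and 20.8 in male WT Tau, at 17.1, 24.6 and 16.7 in male KO PBS and at 20.4, 27.8 and 25.8 in male KO Tau, and the groups overlapped. Its largest difference was 0.35 (SE 0.16, FDR 0.628) in male KO Tau versus male KO PBS. Library 752 was the highest of male KO PBS, and without it this value of Cry1 was 0.55 (SE 0.14, unadjusted p = 0.00198, FDR 0.147) and male KO PBS stood at -0.38 (SE 0.14, FDR 0.838) versus male WT PBS, where it was at -0.18 with all libraries.

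The REV-ERB receptors overlapped between all pairs of male groups. Nr1d1 was at 92.5, 84.3 and 99.6 CPM in male WT PBS, at 74.3, 71.5 and 84.6 in male WT Tau, at 71.2, 105 and 87.7 in male KO PBS and at 64.1, 90.0 and 89.6 in male KO Tau. Nr1d2 was at 95.7, 95.0 and 90.5 CPM in male WT PBS and between 86.6 and 119.6 CPM in the other male libraries. Library 752 was the highest of male KO PBS in both receptors, and versus male WT PBS that group stood at 0.06 for Nr1d2 and -0.07 for Nr1d1 with it and at -0.11 (SE 0.11) and -0.21 (SE 0.16) without it. In Nr1d1 the log2 deviation from the mean of male KO PBS was -0.29 in library 751 and 0.28 in 752. Leaving out 752 therefore shows only 1 direction of that spread. The activators were as close between the male groups. Arntl was at 38.9, 45.6 and 39.1 CPM in male WT PBS, at 42.2, 42.4 and 40.9 in male WT Tau, at 37.0, 45.9 and 36.9 in male KO PBS and at 44.1, 38.4 and 43.4 in male KO Tau, and Clock was at 84.0 to 115 CPM over the 12 male libraries. The fold changes of Arntl between male groups lay between -0.05 and 0.07, and without 752 they reached -0.16 (SE 0.099) in male KO PBS versus male WT PBS and 0.18 (SE 0.099) in male KO Tau versus male KO PBS.

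Dbp, the output gene, was at 37.6, 31.7 and 34.0 CPM in male WT PBS, at 26.8, 27.8 and 29.7 in male WT Tau, at 25.5, 28.5 and 29.7 in male KO PBS and at 29.5, 42.6 and 30.4 in male KO Tau. The libraries of male WT Tau and of male KO PBS all lay below those of male WT PBS, and of male KO Tau only library 712 reached or passed their range. The fold changes versus male WT PBS were -0.29 (SE 0.14), -0.30 (SE 0.14) and -0.01 (SE 0.14). The value of male KO Tau rested on library 712, and it was -0.19 (SE 0.11) without 712 and 0.08 (SE 0.14) without 711. The interaction of genotype and treatment was 0.59 (SE 0.20, unadjusted p = 0.0116, FDR 0.996) and was not called. Its value ran from 0.39, without library 712, to 0.68 over 17 alternatives, with no change of sign.

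Over the male comparisons, 0 of the 10 members passed the FDR of 0.05 in edgeR, against a background of 0% of genes in male WT Tau versus male WT PBS, 0.00662% in male KO PBS versus male WT PBS, 0.00662% in male KO Tau versus male WT PBS, 0.00662% in male KO Tau versus male WT Tau, 0% in male KO Tau versus male KO PBS, 0% for the interaction, 0% for Tau against PBS averaged over genotype and 0.00662% for KO against WT averaged over treatment. At an unadjusted p under 0.05 the members numbered 1, 3, 2, 1, 1, 1, 1 and 2 in the same order, where 1.86%, 4.42%, 6.33%, 4.71%, 7.95%, 4.18%, 5.38% and 4.58% of all genes had such a p. Wherever the percentage was above 0, the 1 gene called was Acss2 itself. The median log2 fold change of the members was -0.14 for male WT Tau, -0.12 for male KO PBS and -0.02 for male KO Tau versus male WT PBS, beside -0.01, 0.01 and 0.00 over all genes tested. Of the 10 members, 8 had a negative fold change in the first 2 of these comparisons and 6 in the third. With each of the 12 male libraries left out in turn these counts ran from 7 to 9, from 6 to 9 and from 4 to 7. In male KO PBS versus male WT PBS the sign of 2 members changed without library 751, and that of 1 member without 752. Libraries did not overlap for 2 members in male WT Tau versus male WT PBS (Per2 and Dbp, with 12.2% of all genes not overlapping), for 4 in male KO PBS versus male WT PBS (Per1, Per2, Cry2 and Dbp, with 10.0%), for 3 in male KO Tau versus male WT PBS (Per1, Per2 and Cry2, with 14.1%), for Per1 in male KO Tau versus male WT Tau (12.0%), and for Per1 and Per3, the latter higher, in male KO Tau versus male KO PBS (8.55%). With CPM scaled by total counts alone, the members without overlap numbered 4 in male WT Tau versus male WT PBS (Per1, Per2 and Dbp lower and Clock higher, with 12.2% of all genes) and were as above in the other 4 comparisons.

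Over 25 alternatives Per1 was called in 5 in male KO PBS versus male WT PBS and in 7 in male KO Tau versus male WT PBS. Leaving out 1 library changed the number of members called in DESeq2 on the compared groups alone, where a group is left with 2 libraries. In both of these comparisons Per1 lost its call in that test without male WT PBS 792 or 793. The call was kept without 791 and without each KO library. Without male WT Tau 773 that test called Per1 (-0.51), Per2 (-0.39), Cry2 (-0.26) and Nr1d1 (-0.32) lower in male WT Tau than in male WT PBS, with adjusted p of 5.91e-05, 0.0176, 0.0233 and 0.0497, in a fit that called 2.33% of genes. With 773 it called 0 members. Without male KO Tau 711 that test called Per1 (-0.76, adjusted p = 3.2e-11) and Per2 (-0.40, adjusted p = 0.0287) in male KO Tau versus male WT PBS. That fit called 1029 genes (7.13%). Versus male WT Tau, also without 711, Cry1 was called higher (0.38, adjusted p = 0.0439), in a fit that called 1378 genes (9.30%). The paper reports the same totals of genes for these comparisons. Its figure legend gives a smaller KO Tau group than that used here, and the absent library is not named there. These fits therefore appear to use the published sample set.

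**Figure D2:**
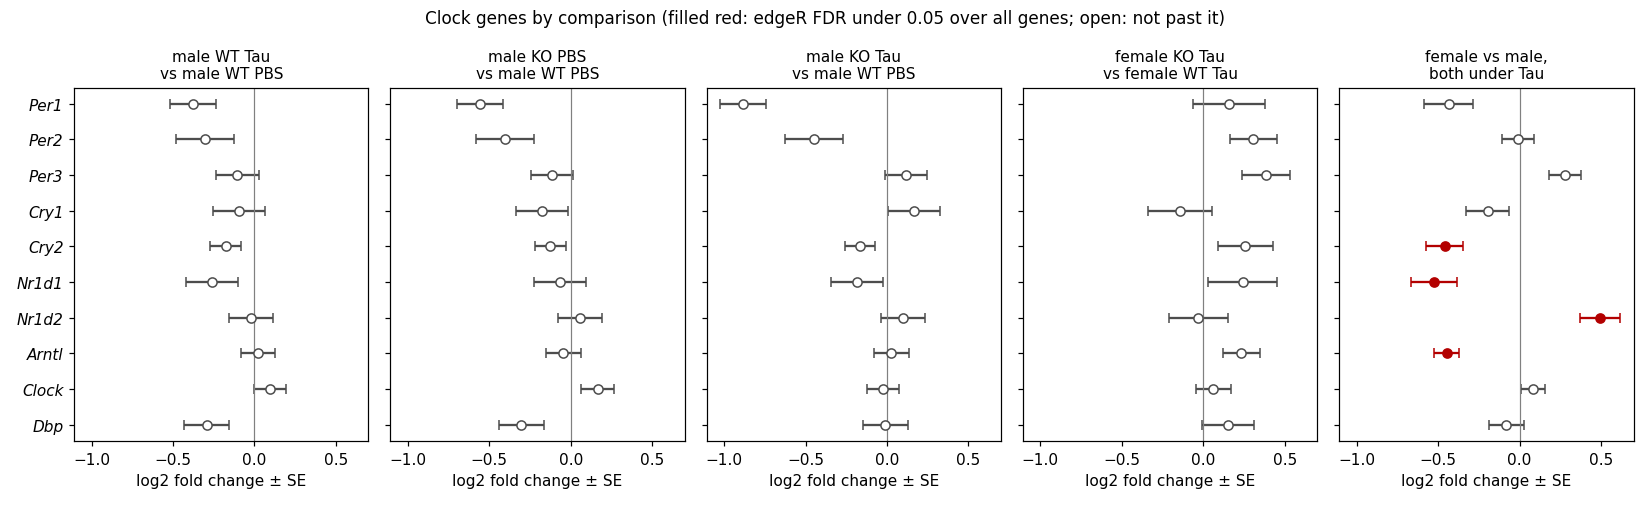
Log2 fold change ± SE (x axis) of the 10 clock genes (y axis) in 5 comparisons from the edgeR fits, filled red where the FDR over all genes was under 0.05 and open where it was not. All points are open in the 3 male panels and in the female genotype panel, Per1 reaches -0.88 in male KO Tau versus male WT PBS, and Cry2, Nr1d1, Nr1d2 and Arntl are filled in the comparison of the sexes.

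The female libraries allowed the genotype to be compared under Tau alone. Per3 was at 34.9 and 37.7 CPM in female WT Tau (331 and 341) and at 49.1, 47.8 and 45.4 in female KO Tau (314, 324 and 325), with no overlap. Its log2 fold change was 0.39 (SE 0.15, unadjusted p = 0.0229), which did not pass the FDR (0.997). Per2 (28.5 and 34.1 against 38.5, 35.7 and 42.1 CPM) and Arntl (28.0 and 28.7 against 37.0, 32.5 and 30.4 CPM) did not overlap either, with higher levels in the KO, at 0.31 (SE 0.14) and 0.23 (SE 0.11). Together 3 members did not overlap, as did 16.1% of all genes, and with CPM scaled by total counts alone Dbp was added, beside 16.1% of genes. In edgeR 0 members passed the FDR, with 0.00649% of all genes called, which is Acss2 alone. An unadjusted p under 0.05 was found for 1 member and for 2.89% of all genes, and for Per3 it was lost without library 331 (0.33, SE 0.19, unadjusted p = 0.115). The median over the members was 0.19, beside -0.01 over all genes, and 8 of 10 were positive. These signs rested in part on single libraries. Without 331 the sign of 3 members changed and 7 were positive (median 0.14), and without 314 it changed for 3 and 9 were positive (median 0.11). Per1 was at 50.3 and 73.7 CPM in female WT Tau and at 84.8, 64.9 and 57.9 in female KO Tau, a fold change of 0.16 (SE 0.22) that was -0.09 (SE 0.25) without 331 and -0.0012 (SE 0.22) without 314. Among males under Tau the same fold change was -0.50 (SE 0.14). The immediate early genes were at 531 CPM (331) and 775 CPM (341) in sum in female WT Tau and at 639 to 1072 CPM in female KO Tau. Library 341 thus lay within the range of female KO Tau. Of the 16 genes, 15 had a positive fold change with 0 called, a count that is not given without 331. The part of the immediate early genes in these values was not tested. The sex by genotype interaction was 0.66 (SE 0.30, unadjusted p = 0.0473) for Per1 and 0.46 (SE 0.19, unadjusted p = 0.0374) for Per2, and neither passed the FDR (0.978). Over 16 alternatives the value of Per1 ran from 0.41, without 331, to 0.97, without 341, and that of Per2 from 0.31 to 0.59, with no change of sign. The interaction called 0 members and 0% of genes, and 2.94% of all genes had an unadjusted p under 0.05 in it.

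Female and male libraries under Tau differed in 4 members. Arntl, the activator, was lower in females, at 28.0 to 37.0 CPM in 5 libraries against 38.4 to 44.1 CPM in 6 male libraries, and the groups did not overlap. Its log2 fold change averaged over genotype was -0.45 (SE 0.076, FDR 0.00639 in edgeR). Cry2 was at 85.6 and 107 CPM in female WT Tau and at 131.2, 122 and 93.2 in female KO Tau, against 131.5 to 163 CPM in males, also without overlap but with the nearest libraries a fraction of a CPM apart, at -0.46 (SE 0.11, FDR 0.0184). Nr1d1 was at 54.9 and 46.1 CPM in female WT Tau and at 77.8, 48.5 and 52.7 in female KO Tau, and only 314 lay within the male range of 64.1 to 90.0 CPM. Its fold change was -0.53 (SE 0.14, FDR 0.0246). Nr1d2, its paralog, was at 162 and 112.6 CPM in female WT Tau and at 116, 129 and 158 in female KO Tau, and only 341 lay within the male range of 88.0 to 114.6 CPM. It was higher by 0.50 (SE 0.12, FDR 0.0181), so the receptors of the same family differed in opposite directions. The remaining members were not called, with the nearest being Per1 (-0.43, SE 0.15, FDR 0.0549) and Per3 (0.28, SE 0.098, FDR 0.0574). Clock (0.08, SE 0.073), Per2 (-0.01, SE 0.096), Cry1 (-0.20, SE 0.13) and Dbp (-0.08, SE 0.11) also did not pass.

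These 4 calls of 10 were made in a comparison that called 23.8% of all genes, 11.4% higher and 12.4% lower in females, and the 2 members without overlap stand beside 11.3% of genes. The median fold change of the members was -0.14, and -0.01 over all genes. Arntl was called in all 16 alternatives. The other calls were each lost when certain single libraries were left out. Without female WT Tau 331 only Arntl was called (-0.44, FDR 0.0363), while Cry2 was at -0.38 (FDR 0.0920), Nr1d1 at -0.59 (FDR 0.0687) and Nr1d2 at 0.35 (FDR 0.0988), and 3.99% of genes were called. Without male WT Tau 773 Arntl and Per3 were called, with 10.3% of genes, while Cry2 (-0.41, FDR 0.0525), Nr1d2 (0.48, FDR 0.0512) and Nr1d1 (-0.49, FDR 0.0648) were not. Without male KO Tau 711 the count rose to 6, with Per1 and Per3 added, as the share of all genes called rose to 40.7%. Nr1d1 also lost its call without 712 (-0.47, FDR 0.0539) or 713 (-0.49, FDR 0.0612), and without 341, 324 or 325. Across the 16 alternatives Cry2 and Nr1d2 were called in 14 each, Nr1d1 in 9, Per1 in 6 and Per3 in 4. With CPM scaled by total counts alone, Nr1d2 did not overlap between the sexes and Cry2 did, beside 10.4% of genes without overlap.

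Other measures moved with this comparison. The summed astrocyte markers were 6323 to 7426 CPM in the female libraries and 3331 to 6641 CPM in the male Tau libraries, the highest of which was 711, and the 5 endothelial markers were 235 to 280.2 CPM against 143 to 232 CPM. The 6 oligodendrocyte markers were 4663 to 10707 CPM in females, highest in 331, against 3436 to 7557 CPM. Library 331 also had the lowest CA1 sum of all libraries (303 CPM). Markers of some neurons stood lower in females, at 443 to 572 CPM against 565 to 907 CPM for 5 inhibitory neuron markers and at 303 to 736 CPM against 600 to 915 CPM for 5 markers of CA1 pyramidal cells, with overlap in both, whereas 5 CA3 markers were at 123 to 270 CPM against 102 to 183 CPM. The 12 glucocorticoid-responsive genes were 491 to 688 CPM in females and 277 to 361 CPM in males under Tau, and 9 of the 12 were called higher and 0 lower. Sgk1 (1.41, SE 0.22, FDR 0.00488) and Tsc22d3 (1.17, SE 0.12, FDR 0.000724), both induced by the glucocorticoid receptor, were among them. The 16 immediate early genes were 531 to 1072 CPM in females and 915 to 1779 CPM in males, with 8 called lower and 0 higher. Their part in the clock gene differences was not tested.

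Over all 6 groups at once, 6 members differed in an F-test in edgeR. These were Per1 (F = 11.4, FDR 0.00497), Cry2 (F = 7.64, FDR 0.0138), Per3 (F = 7.04, FDR 0.0167), Arntl (F = 7.02, FDR 0.0168), Nr1d1 (F = 5.38, FDR 0.0337) and Nr1d2 (F = 4.80, FDR 0.0450), in a test that called 19.0% of all genes. Per2 (FDR 0.203), Dbp (FDR 0.217), Cry1 (FDR 0.504) and Clock (FDR 0.521) were not called. The same test without female WT Tau 331 called Per1 and Per3 (10.4% of genes), and without female KO Tau 324 it called Per1, Cry2 and Arntl (12.1% of genes).

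With no collection time on record, the members were compared with one another between libraries of the same group. Dbp was the reference, since it is among the genes of largest daily amplitude in most tissues. After the group means were removed, the correlation with Dbp over the 17 libraries was 0.36 for Per1, -0.19 for Per2, -0.01 for Per3, 0.38 for Nr1d1, 0.09 for Nr1d2, 0.09 for Cry1, 0.53 for Cry2, -0.28 for Arntl and -0.18 for Clock (Pearson's r). These are 9 relations, and the exact permutation p was at least 0.253 for the other 8. Only Cry2 had an unadjusted p under 0.05, with r = 0.53 (exact permutation p = 0.0340) and Spearman's rho = 0.56 (exact permutation p = 0.0396), and it did not pass after adjustment over all 15593 genes (FDR 0.929). For Arntl the exact permutation p was 0.363 for r and 0.355 for rho (-0.31), and for Nr1d1 0.278 and 0.288 (rho 0.37). Called were 0 of 15593 genes (0%), and the smallest p that the 15552 permutations allow was 6.43e-05. Libraries 712 (0.34) and 711 (-0.19) had the Dbp values farthest from the median. Without them r was 0.64 for Cry2, 0.54 for Per3, 0.37 for Per1, 0.31 for Nr1d1, 0.02 for Arntl, -0.12 for Clock, -0.16 for Per2, -0.27 for Cry1 and -0.35 for Nr1d2. Library 712 alone accounted for most of this shift. Without it r was 0.02 for Arntl, 0.55 for Per3, -0.22 for Cry1 and -0.32 for Nr1d2, whereas without 711 alone it was -0.21, 0.02, -0.11 and -0.06. Within the 12 male libraries, the larger of the library series, r was 0.48 for Cry2, 0.57 for Nr1d1, 0.46 for Nr1d2 and -0.49 for Arntl, and the female series held too few libraries for a value of its own.

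**Figure D3:**
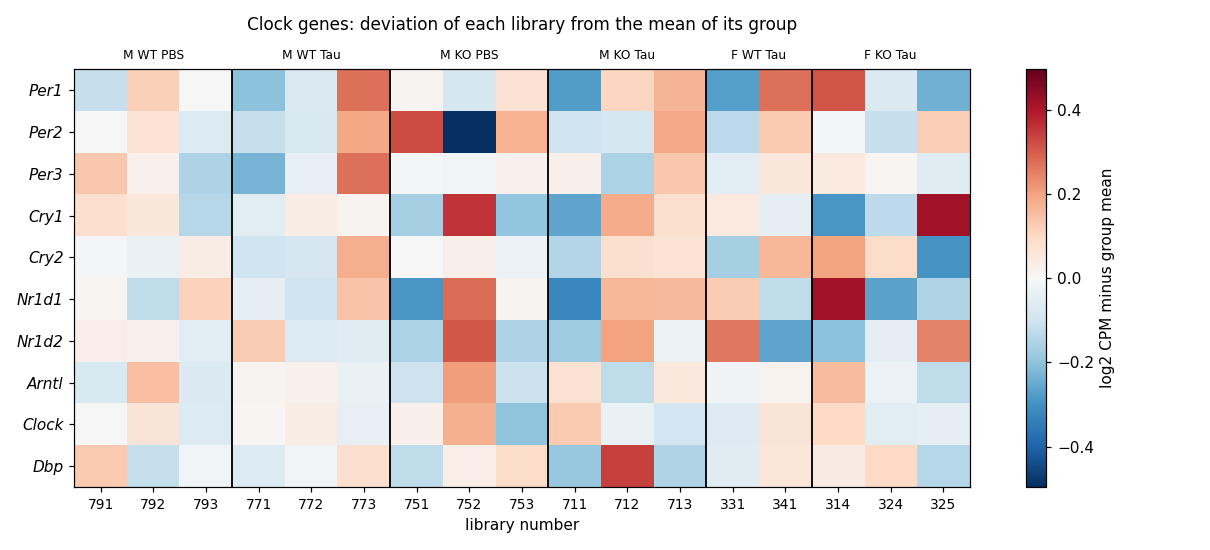
Deviation of each library (x axis, library number, groups divided by lines, M male and F female) from the mean of its group for the 10 clock genes (y axis), in log2 CPM on a color scale from blue (below the group mean) to red (above it). Library 752 is high in Cry1, Nr1d1, Nr1d2 and Arntl and low in Per2, and library 712 is high in Dbp (0.34). Libraries 771 and 772 lie opposite to 773 in most rows, which centring within their group partly fixes.

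Other pairs of members ran closer together than any did with Dbp. As a description without a test, r over the 17 deviations was 0.85 for Per1 and Cry2, 0.81 for Cry1 and Nr1d2 and 0.71 for Arntl and Clock, and it was -0.54 for Per2 and Nr1d2 and -0.51 for Per1 and Nr1d2. These pairs are the extremes among all pairs of members, and a gene outside the list reached 0.93 with Arntl. Since group means were removed, the 17 deviations are not independent of one another. Depth and cell makeup of a library enter all of these values. Libraries 773 and 753 lay above their group mean in Dbp, Nr1d1, Per1, Per2 and Per3 and below it in Arntl and Clock, libraries 771 and 772 showed the reverse signs in all 7 genes, and the remaining 13 of 17 libraries showed neither pattern. In 773 the deviations were 0.08 for Dbp, 0.27 for Per1, 0.14 for Nr1d1 and -0.03 for Arntl. This count was made after the values were seen. Deviations within a group cancel out by construction, so the signs of 771 and 772 are partly fixed by those of 773. Library 752 was high in Nr1d1, Nr1d2, Cry1, Arntl and Clock and low in Per2 relative to its group, and its dentate markers were the lowest and its striatal markers (408 CPM) the highest of all libraries. Library 712 was 0.34 above its group in Dbp, and its dentate markers stood at 189 CPM. The genes most like Dbp in this measure, among those with a mean of at least 5 CPM and with the members left out, were Asphd1 (r = 0.86), Btg2 (0.86), Ppp1r15a (0.84), Sept6 (0.83) and Lrrc3 (0.81), none of them on the list of clock genes, while Btg2 is on that of immediate early genes. Those most like Arntl were Fmn1 (0.93), Hipk4 (0.92), Vsig2 (0.90), Ldlrad4 (0.87) and Kif17 (0.86). Both lists are over 17 libraries and were not tested.

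A clock index, the mean log2 CPM of Per1, Per2, Per3, Nr1d1, Nr1d2 and Dbp minus that of Arntl and Clock, was computed for each library and centred over all of them. It was 0.25, 0.07 and 0.22 in male WT PBS and -0.21, -0.20 and 0.07 in male WT Tau. The knockouts had -0.12, -0.31 and 0.07 in male KO PBS and -0.32, 0.12 and 0.05 in male KO Tau. Among females it was 0.05 and 0.01 in female WT Tau and 0.06, 0.06 and 0.14 in female KO Tau. Male WT PBS had the highest group mean (0.18), and its lowest library was below the highest of male WT Tau, male KO PBS and male KO Tau. The whole range over libraries was 0.57 on the log2 scale, and the SD within groups was 0.15. The difference between the highest and the lowest library of male KO Tau alone, 711 and 712, covered most of that range. The order of the groups depended on the genes chosen, and with Dbp minus Arntl alone female WT Tau (0.29) and female KO Tau (0.21) stood above male WT PBS (0.06). The index is a description and was not tested.

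**Figure D4:**
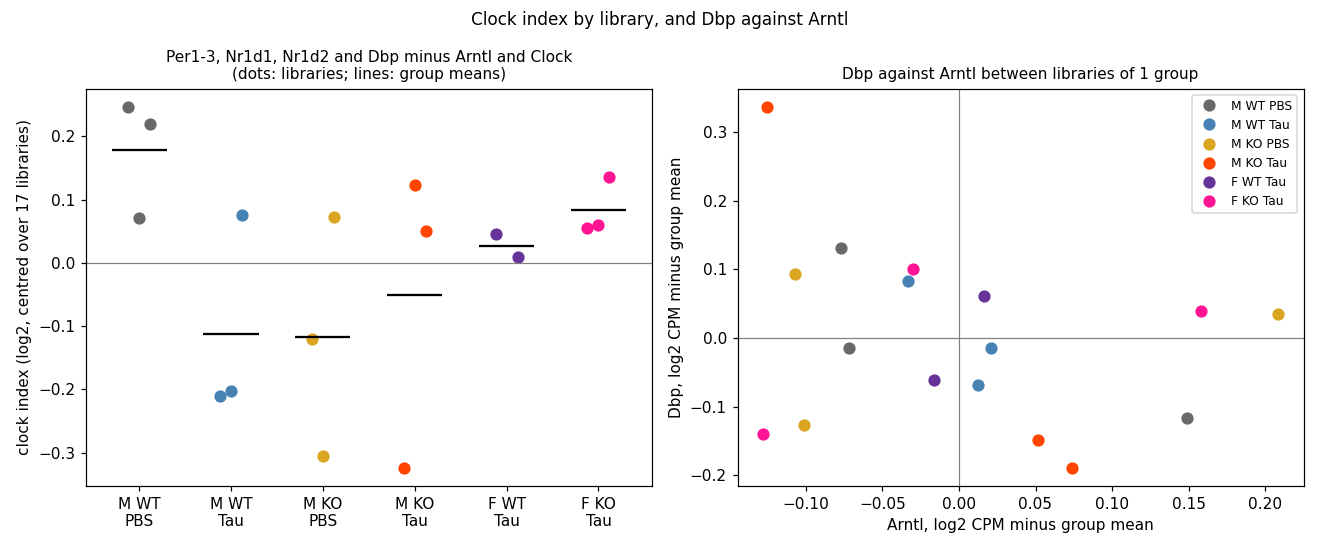
Left, the clock index (y axis, log2, centred over the 17 libraries) of each library (dots) with the group means (lines) in the 6 groups (x axis, M male and F female). Right, Dbp (y axis) against Arntl (x axis), both as log2 CPM minus the group mean, one dot per library colored by group. The index runs from -0.32 in a male KO Tau library to 0.25 in a male WT PBS library, and the male KO Tau library highest in Dbp (0.34) is among the lowest in Arntl.

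The other parts of the clock machinery were read from the same fits as 24 further genes, all of which were tested. In the 5 pairwise male comparisons 0 of the 24 passed the FDR. At an unadjusted p under 0.05 there were 1, 0, 2, 2 and 3 in male WT Tau versus male WT PBS, in male KO PBS and male KO Tau versus male WT PBS, and in male KO Tau versus male WT Tau and versus male KO PBS, beside 1.86%, 4.42%, 6.33%, 4.71% and 7.95% of all genes. Ciart, a repressor of CLOCK and BMAL1 driven by E-boxes, had 10.5 to 11.8 CPM in male WT PBS and 6.24 to 8.77 CPM in male WT Tau (-0.55, SE 0.23, FDR 0.99994). Nfil3, the repressor that competes with DBP at D-boxes, was at 14.2 to 20.6 CPM in male WT PBS and at 8.89 to 15.7 CPM in male KO Tau (-0.53, SE 0.20, FDR 0.783). Bhlhe40, which represses at E-boxes, was at -0.37 (SE 0.12, FDR 0.783) in that comparison. The PAR bZIP factors Tef (0.09) and Hlf (0.19), paralogs of Dbp, were not called either.

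Between the sexes under Tau, 9 of the 24 genes were called, 4 higher and 5 lower in females, in the comparison that called 23.8% of all genes, 11.4% higher and 12.4% lower. Among kinases and factors of protein turnover, Csnk1d (-0.36, SE 0.077, FDR 0.0120) and Csnk1e (-0.46, SE 0.11, FDR 0.0142), the casein kinases that phosphorylate PER proteins, were lower. Csnk1d ranged over 128 to 154 CPM in females and over 171 to 188 CPM in males under Tau, without overlap. The ubiquitin ligase subunit Btrc, which acts on phosphorylated PER, fell by 0.40 (FDR 0.0163), and Usp2, a deubiquitinase, by 0.36 (FDR 0.0174). Fbxl21 (0.48, SE 0.15, FDR 0.0424), a ligase subunit that acts on cryptochromes, was higher. Rora, the receptor that activates Arntl at ROR elements, was higher (0.79, SE 0.19, FDR 0.0157), at 66.1 to 148 CPM in females and 45.5 to 74.6 CPM in males under Tau. Rora is also a marker of thalamus and is itself among the 6 thalamic markers. Their sum, with Rora in it, was 140 to 484 CPM in females and 106 to 201 CPM in males under Tau. Nfil3 was lower (-0.50, FDR 0.0280) and Nampt, an E-box target of NAD metabolism, was higher (0.28, FDR 0.0338). The casein kinase Csnk1a1 (0.13) and the kinase Gsk3b (-0.13), and the remaining repressors Bhlhe41 (0.20), Ciart (-0.14) and Cipc (-0.01), were not called. The median over the 24 genes was -0.06, beside -0.01 over all genes. In females the genotype comparison called 0 of the 24, and 1 of them, Usp2 (0.37, SE 0.13, FDR 0.997), had an unadjusted p under 0.05, beside 2.89% of all genes.

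All 10 members are protein-coding genes. In GRCm38 the PERIOD genes lie at chr11:69095217-69109960 (Per1), chr1:91415982-91459324 (Per2) and chr4:151003652-151044665 (Per3), and the cryptochromes at chr10:85131700-85185064 (Cry1) and chr2:92403646-92434043 (Cry2). The activators lie at chr7:113207465-113314126 (Arntl) and chr5:76209868-76304792 (Clock), the REV-ERB genes at chr11:98767932-98775333 (Nr1d1) and chr14:18204054-18239127 (Nr1d2), and Dbp at chr7:45705088-45710203. Cry2 is on the chromosome of Acss2, 63083905 bases away from it. Exons of Nr1d1 share 263 bases with Thra, those of Dbp 539 with Sphk2, those of Cry2 295 with D930015M05Rik and those of Arntl 33 with Gm45355, each on the opposite strand. The counting was set to the reverse strand, whereas the library kit named in the labels is not the directional version of that kit. The sources used here do not say which version was used. Exons of Tsix, which is antisense to Xist, share 1980 bases with those of Xist. In the female libraries Tsix had at most 6 counts while Xist had at least 12161, so few Xist reads can have been counted for Tsix. Whether reads of the members were counted apart from those of their own antisense partners was not tested.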

How the data were processed

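Polyadenylated RNA of mouse dorsal hippocampus was measured in 17 libraries. The deposited table held whole-number counts of reads for each symbol, not normalized. Per the labels and methods, the authors aligned reads with STAR 2.5.2 to GRCm38, used SAMtools 1.1, and counted exon reads with HTSeq 0.9.1 in reverse-stranded mode. Their own test was DESeq2. The annotation release is not given in the sources used here.

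The main test was edgeR 4.0.16 in R 4.3.3, quasi-likelihood F-tests (TMM, filterByExpr with minimum count 10 and minimum total count 15, Benjamini-Hochberg FDR of 0.05 over all genes tested). Male contrasts came from 1 fit of the 12 male libraries (15098 genes), contrasts with females from the 11 Tau libraries (15419 genes) and the test of 6 groups from all 17 (15594 genes). Alternatives were DESeq2 1.42.0, RLE factors, no filter, limma 3.58.1 voom with quality weights, fits of only the groups compared or of all libraries, and each library left out. CPM were computed from TMM library sizes. Correlations used log2 CPM (prior count 2) minus the group mean, with exact permutations within groups, over every gene with any spread. Scripts were tested on simulated data. Counts of 14183131 to 22463635 per library set the precision. A level of 3 counts corresponds to 0.134 to 0.212 CPM before TMM scaling, which accounts for counting error alone. Among 136 pairs of libraries 0 were identical. Lengths, positions and overlaps came from GENCODE for GRCm38, and promoters from RefSeq, in which 9 of the 10 members had a window.

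Members and gene lists were chosen with earlier results of these data known. Named genes were the 10 members, Acss2, 24 other clock genes, 12 glucocorticoid-responsive and 16 immediate early genes, the 5 genes most alike to Dbp and to Arntl, and marker lists. Xist, Tsix and genes overlapping a member are named beyond that rule as checks. The values of 1 of the 24 other clock genes are not reported here.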

Additional observations from a re-analysis of the deposited data

How the results depend on the processing

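The number of clock genes called stayed at 0 in every alternative for male KO Tau versus male KO PBS, both interactions, Tau against PBS averaged over genotype and the female genotype comparison. With each library left out it ran from 0 to 4 in male WT Tau versus male WT PBS, from 0 to 1 in male KO PBS versus male WT PBS, from 0 to 2 in male KO Tau versus male WT PBS and from 0 to 1 in male KO Tau versus male WT Tau, from 1 to 6 between the sexes and from 2 to 7 over the 6 groups. All values above 0 in these male ranges came from DESeq2 on the compared groups alone. With all libraries, the count was 1 (Per1) in male KO PBS versus male WT PBS by DESeq2 on those groups alone, 1 in male KO Tau versus male WT PBS by DESeq2 on the same libraries, by limma voom and by DESeq2 on those groups alone, and 1 for KO against WT averaged over treatment by DESeq2 on the same libraries. The cause of these differences between tests was not tested. Dbp minus Arntl alone in place of the clock index put female WT Tau at 0.29 instead of 0.03 and above male WT PBS (0.06). The correlation with Dbp called 0 members in every alternative, as did the test itself, which says nothing of stability, since the smallest p that the permutations allow was 6.43e-05 to 0.000772 and 15593 genes were adjusted for. Among the members with an unadjusted p under 0.05, no fold change reversed its sign in an alternative. No paired analysis was possible because the groups share no replicate numbers. Depth did not limit detection of these genes, which had at least 209 counts, and 2 or 3 libraries per group limit the tests.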
